A study of Mus musculus with 8 samples.

Results

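Piwi-interacting RNAs (piRNAs) were by far the largest class of small RNA counted in the testes of these mice, and the 200 most abundant of them are described here. They were chosen on the counts themselves: each count was divided by the total of its mouse and expressed in CPM (counts in each 1000000), the mean CPM over the 8 mice was taken, and the 200 piRNAs with the highest mean were kept, of 18975 piRNAs and 20558 small RNAs listed. All 200 passed the filter on low counts, as did 16054 of the piRNAs. The members make up 1.05% of the piRNAs listed. Since the rule used the mean level, the levels below are a description. The rule gave every mouse of both diets the same weight and did not use the difference between the diets, which was tested. A mean is still raised by a few high mice, so the list is not independent of the spread between the mice of a diet.

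The small RNA came from whole testes of adult C57Bl/6 males, 1 mouse per library. M1N, M2N, TN1 and TN2 are the 4 controls, kept on standard chow (SD). The experimental group, M1W, M2W, M3W and M5W, received a Western-like diet (WD) rich in sugar and fat. According to the labels the diet began when the mice were 4 weeks old, and the males were mated at 4 months. The same feeding text stands in the labels of the controls, to which it was not applied here. Which cells of the testis a count came from is unknown, and in whole tissue fewer cells of a type and less RNA per cell cannot be told apart.

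piRNAs are germline small RNAs that are loaded into proteins of the PIWI family, and in mice they are known for silencing transposons and for being needed to complete spermatogenesis. In the adult testis most of them are pachytene piRNAs, which are cut from long single-stranded precursor transcripts of a limited number of genomic clusters in meiotic spermatocytes and round spermatids, where the PIWI proteins MIWI and MILI hold them. One precursor gives many different piRNAs, and the abundance of a single one reflects both the transcription of its cluster and the cutting of the precursor. The table names each piRNA by an FR number alone. Their sequences, clusters and positions were not analysed here, so no role can be given for a single member.

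The tissue label was checked against markers. piRNAs took between 84.4% and 88.6% of the counts per mouse, of a total of 2064562 to 3253798 counts, and miRNAs of meiotic and later germ cells (the miR-34b, miR-34c and miR-449a list, 4 of 4 found) summed to between 13031 and 17902 CPM. The 2 arms of miR-202, typical of the gonad's somatic cells, summed to between 3609 and 7021 CPM. Against these, miRNAs of skeletal muscle (2 of 4 found) stayed between 26.7 and 51.7 CPM, and the liver miRNA miR-122-5p was at 0 in 6 of the 8 mice. No library appeared to be another one entered again, since the members' counts of any 2 mice differed by a chi-square of at least 12.6 per degree of freedom, over 28 pairs.

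The members ranged over 13.0-fold in mean CPM, from 5721 for FR174327 to 441 for FR213976. The edge of the list is not a gap. The last members, FR320793 and FR213976, had means of 442 and 441 CPM, and the first piRNAs left out, FR266840 and FR387346, had 441 and 437 CPM. All members were well counted. The smallest count of any member in any mouse was 610, which has a counting error of 4.05%, and the 3 counts that set the detection floor correspond to between 0.922 and 1.45 CPM. For a piRNA of this abundance the spread between mice, not the counting, sets the precision. These counting errors do not cover amplification, as reads copied by PCR are not independent molecules.

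**Figure D1:**
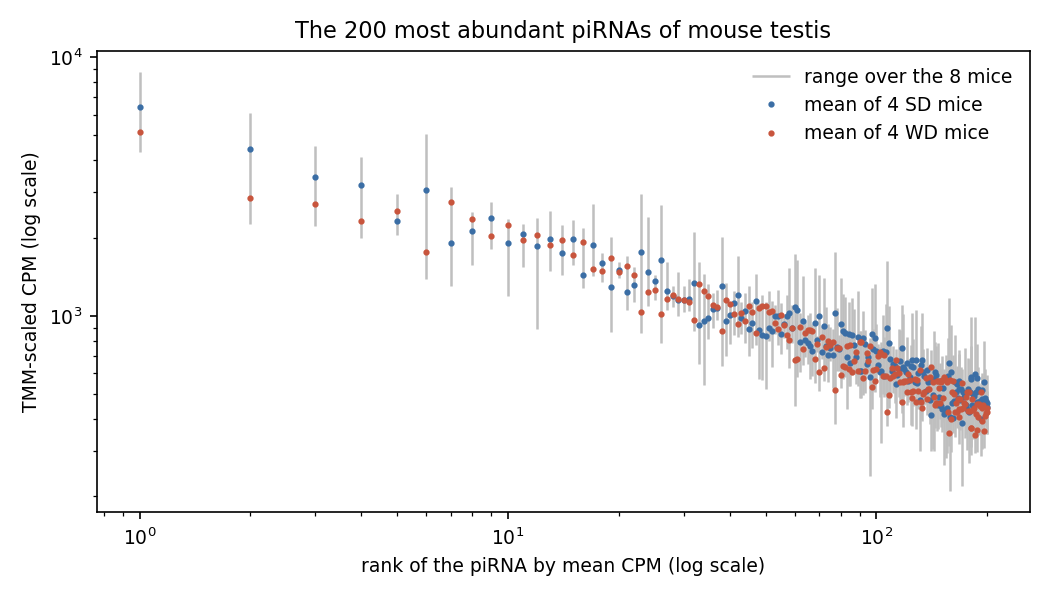
Abundance of the 200 members in TMM-scaled CPM (log scale) against their rank by mean CPM (log scale), with the mean of the 4 SD mice, the mean of the 4 WD mice and a grey line from the lowest to the highest of the 8 mice. The mean over the 8 mice, which sets the rank, falls by 13.0-fold from rank 1 to rank 200, the means of the diets scatter around that order, and for a typical member the highest mouse exceeds the lowest by 1.75-fold.

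Together the members held between 18.7% and 21.0% of the piRNA counts of a mouse. The share was 21.0% in M1N, 20.4% in M2N, 19.9% in TN1 and 18.7% in TN2, and among WD mice it was 19.0% in M1W, 19.3% in M2W, 20.3% in M3W and 18.9% in M5W. The diets overlapped, with M1N highest and TN2 lowest, both of them SD mice. The mean was 19.99% ± 0.984 (standard deviation, n = 4) in SD mice and 19.4% ± 0.673 (standard deviation, n = 4) in WD mice, a difference of -0.61 percentage points that did not exceed the spread (two-sided exact permutation test over the 8 mice, p = 0.343). The binomial error of a single share is far smaller, with 95% Wilson intervals of at most 0.0574 percentage points to either side. The direction of the difference depended on the control mice: it was -1.32 points against M1N and M2N and 0.10 points against TN1 and TN2, comparisons in which 2 mice against 4 cannot give an exact p below 0.133.

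The piRNA pool was spread over many names. FR174327, the most abundant piRNA in each of the 8 mice, took between 0.506% and 0.915% of the piRNA counts, the 10 highest members between 2.91% and 3.95%, and the 100 highest between 12.9% and 14.6%. Between 1195 and 1545 piRNAs were needed to reach 50% of the piRNA counts of a mouse. M1N was the most concentrated library, with 1195, followed by M2N with 1359, and the other 6 mice needed 1426 or more. The number did not differ between the diets beyond the spread (two-sided exact permutation test, p = 0.257).

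**Figure D2:**
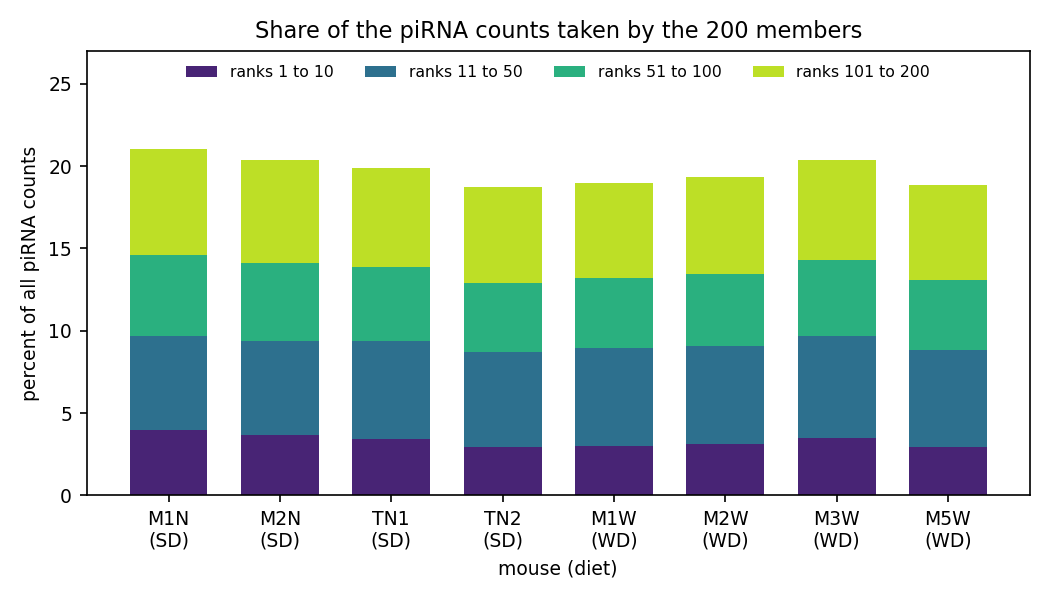
Percent of all piRNA counts of each mouse taken by the members, stacked by rank (1 to 10, 11 to 50, 51 to 100 and 101 to 200), with the diet under the name of the mouse. The bars reach between 18.7% (TN2) and 21.0% (M1N), and the diets overlap.

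The lists of single mice overlapped in most names. The 200 highest piRNAs of a single mouse included 192 of the members in TN1, 179 in TN2, 175 in M2N and 153 in M1N, and between 171 and 187 in the 4 WD mice. M1N thus shared the fewest members and TN1 the most, although both are SD mice. Since the members were chosen on the mean over these same mice, the numbers describe how near each mouse lies to that mean. Of the members, 115 were among the 200 highest in every one of the 8 mice, and 13 in at most 4 of them. The 200 highest piRNAs by the mean of the SD mice and the 200 highest by the mean of the WD mice had 171 names in common, 85.5% of each list.

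Levels of single members are given from here on as CPM scaled by the TMM factors of edgeR, which correct the totals for differences in composition. Of the 10 highest members, 6 were highest in M1N and 3 were lowest in M1N. FR174327, the first, had 8794 CPM in M1N, 6265 in M2N, 6229 in TN1 and 4308 in TN2, and 5351 in M1W, 4296 in M2W, 5540 in M3W and 5342 in M5W. Its diets overlapped, since TN2 was as low as the lowest WD mouse, and its log2 fold change (WD over SD) of -0.32 (standard error 0.21) was within the spread (edgeR's quasi-likelihood test, adjusted p = 0.455).

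FR086732, second in abundance, had 6066 CPM in M1N, 5527 in M2N, 3359 in TN1 and 2786 in TN2, and 2267 in M1W, 3166 in M2W, 3519 in M3W and 2446 in M5W. M1N and M2N were both above every other mouse, while TN1 and TN2 lay among the WD mice. On the log2 scale WD mice differed from SD mice by -0.64 ± 0.25 (standard error), which did not pass edgeR's test (adjusted p = 0.318). FR217667, FR055537 and FR358874, at ranks 3, 4 and 6, had the same pair of mice at the top. FR055537 had 4125 CPM in M1N, 3638 in M2N, 2557 in TN1 and 2497 in TN2, and between 1997 and 2604 CPM in WD mice. FR358874 had 5040 CPM in M1N and 3078 in M2N, and between 1390 and 2343 in the other 6 mice.

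FR118656, FR318025 and FR010123, at ranks 7, 8 and 10, were lowest in M1N. FR118656 had 1302 CPM in M1N, 1984 in M2N, 2257 in TN1 and 2099 in TN2, and 3138 in M1W, 2518 in M2W, 2963 in M3W and 2449 in M5W. Every WD mouse lay above every SD mouse, with means of 2767 ± 336 CPM (standard deviation, n = 4) and 1911 ± 421 CPM (standard deviation, n = 4). Even so, the log2 difference of 0.53 ± 0.19 (standard error) did not pass edgeR's test (adjusted p = 0.318). In FR010123 the WD mice lay between 2136 and 2363 CPM and M1N at 1193, but TN1 and TN2, at 2237 and 2317, were inside the WD range. FR061091 and FR129797, at ranks 5 and 9, differed less, with at most 1.52-fold between the highest and the lowest mouse.

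No member passed the test of diet. With the counts of all 16955 small RNAs that passed the filter on low counts in one fit, 0 of the 200 members passed an adjusted p of 0.05, and the share among all piRNAs tested was 0.00%. The p-values are those of the quasi-likelihood test of edgeR, adjusted by Benjamini and Hochberg's method over all small RNAs tested. The smallest adjusted p of a member was 0.318. DESeq2 and limma-voom also gave 0. Before adjustment, 45 members (22.5%) had a p of at most 0.05, beside 14.6% of all piRNAs tested. Of these, 36 were lower in WD mice, 18% of the members beside 7.90% of all piRNAs, and 9 were higher, 4.50% beside 6.68%. DESeq2 gave 52 such members, 11 of them higher, beside 12.95% of all piRNAs, and limma-voom 44, of which 15 were higher, beside 14.8%.

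Similar shares were found further down the ranks. Of the next 200 piRNAs by mean CPM, 42 (21%) had such a p, 34 of them lower in WD mice, and between ranks 401 and 2000 the share lay between 18% and 19.4%. It was 11.7% among the tested piRNAs below rank 10000, where the counts are low. The median log2 fold change was -0.10 over the members, -0.11 over the next 200 piRNAs and -0.01 over all piRNAs tested. When CPM were left at the column totals these medians were -0.04 for the members and 0.05 for all piRNAs, so the distance between them stayed at -0.09. Lower in WD mice were 119 of the members (59.5%, beside 50.6% of all piRNAs tested) and higher 81. With column totals 106 were lower, which is not to be set beside 50.6%, as the median of all piRNAs moved as well.

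Of the 45, 21 also differed by 1.5-fold or more (10.5% of the members, beside 8.57% of all piRNAs tested), and 20 of the 21 were lower in WD mice (10% beside 4.47%). The comparison with all piRNAs turned with the scaling and the test: column totals gave 14 members (7% beside 7.82%) and limma-voom 15 (7.5% beside 8.75%). FR048394, rank 107, had the most negative log2 fold change of the members. It had 1632 CPM in M1N, 1010 in M2N, 462 in TN1 and 469 in TN2, and 411 in M1W, 450 in M2W, 467 in M3W and 373 in M5W. M1N and M2N stood far above, and TN1 and TN2 were at the level of the highest WD mice. Its value was -1.07 ± 0.32 (standard error), with an adjusted p of 0.318 in edgeR's test. FR207127, rank 77, ran from 1762 CPM in M1N over 1095 in M2N and 766 in TN1 to 476 in TN2, and lay between 382 and 629 in WD mice (log2 fold change -0.99, standard error 0.31). FR265296 and FR268764 had the same shape, with 1176 and 990 CPM in M1N and values between 314 and 405 and between 294 and 398 in WD mice.

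Of the 10 members with the smallest p, all 10 were lower in WD mice, with log2 fold changes from -0.64 to -1.07 and an adjusted p of 0.318 each (edgeR's test). Besides those named, they are FR350026, FR047897, FR267248, FR374754, FR130398 and FR339834. Only FR130398, rank 181, had diets that did not overlap. It had 761 CPM in M1N, 606 in M2N, 462 in TN1 and 456 in TN2, and 318 in M1W, 311 in M2W, 426 in M3W and 412 in M5W. In the other 9 at least 1 of TN1 and TN2 was below the highest WD mouse.

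The members with the largest positive log2 fold changes were FR386610, FR118656, FR081319, FR280844 and FR105055, with values of 0.62, 0.53, 0.53, 0.51 and 0.48 and an adjusted p between 0.318 and 0.332 in edgeR's test. FR386610, rank 141, had 299 CPM in M1N, 307 in M2N, 553 in TN1 and 491 in TN2, and 708 in M1W, 424 in M2W, 668 in M3W and 737 in M5W. M2W was here below TN1 and TN2, so the diets overlapped. The same was true of FR081319, FR280844 and FR105055, where M2W again lay below TN2.

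Members whose diets did not overlap at all numbered 8, 4.00% of the members, beside 5.62% of all piRNAs tested. FR118656, FR347103, FR298136, FR204129 and FR330276 were higher in all WD mice (2.5% of the members, beside 2.93% of all piRNAs), and FR195802, FR130398 and FR288668 were lower (1.5% beside 2.70%). FR330276, FR195802 and FR288668 are named because they belong to these 8. FR347103, rank 21 and the second most abundant of the 8, had 1051 CPM in M1N, 1203 in M2N, 1398 in TN1 and 1309 in TN2, and 1516 in M1W, 1452 in M2W, 1697 in M3W and 1549 in M5W. FR330276, rank 153, had 265 CPM in M1N, 419 in M2N, 474 in TN1 and 506 in TN2, and between 515 and 620 CPM in WD mice. In both, M1N was lowest and TN1 and TN2 came closest to the WD mice. FR288668, rank 194, had between 478 and 601 CPM in SD mice and 324 in M1W, 468 in M2W, 469.5 in M3W and 304 in M5W. The separation could be narrow: in FR195802 TN1 had 629.7 CPM and M3W 626.2 CPM. FR298136 and FR204129, moreover, had almost the same counts in every mouse, as described below.

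**Figure D3:**
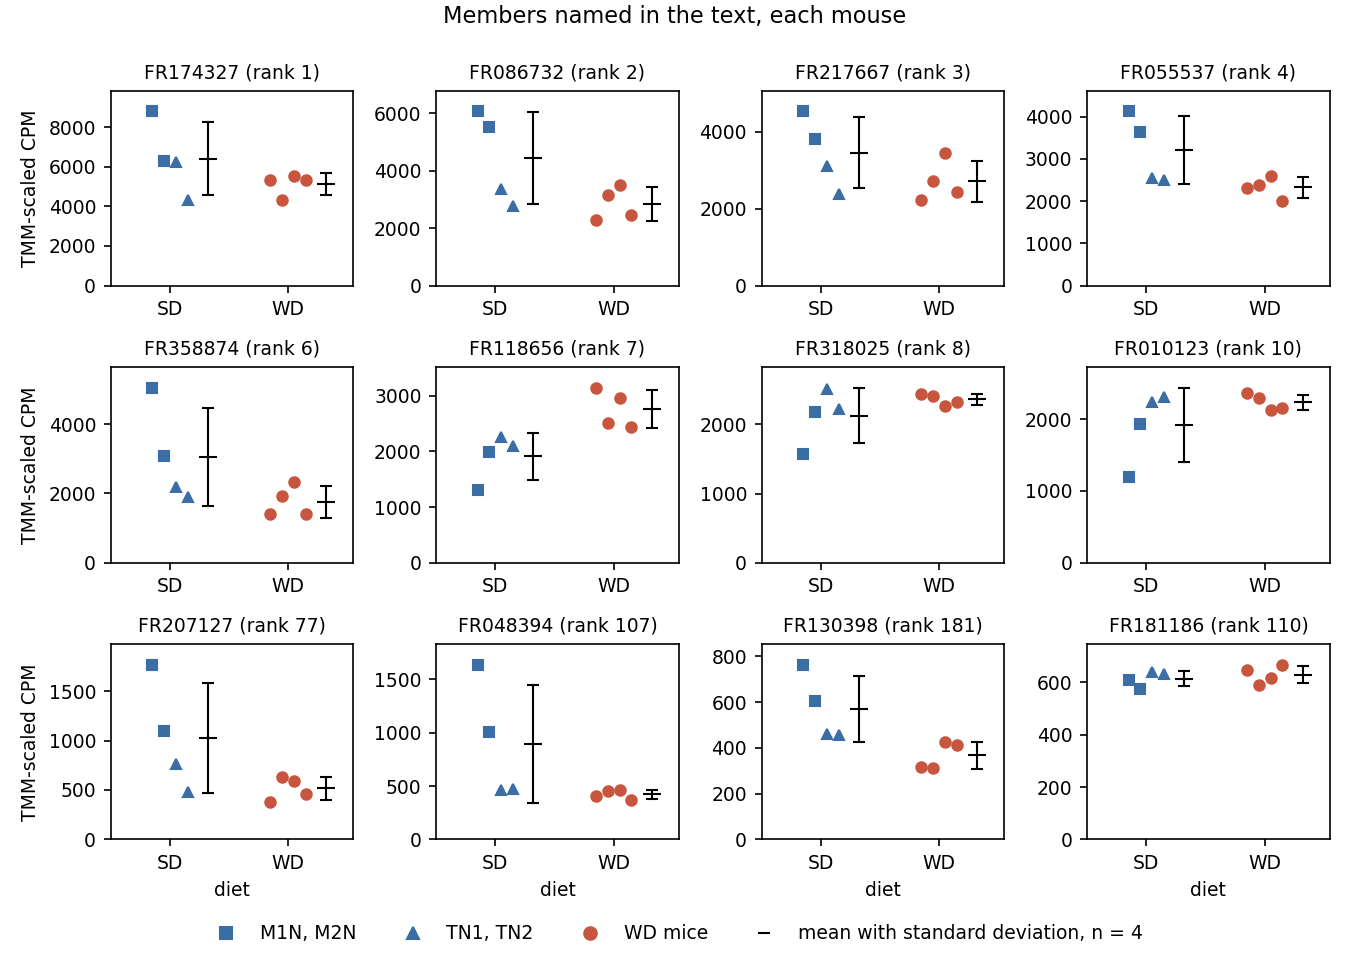
TMM-scaled CPM of 12 of the members named in the text in each mouse, with squares for M1N and M2N, triangles for TN1 and TN2 and circles for WD mice, and beside each diet the mean with its standard deviation (n = 4). In FR048394 the squares stand at 1632 and 1010 CPM and the triangles at 462 and 469, level with the WD mice, whereas FR181186 lies between 574 and 664 CPM in all mice.

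The mice on the standard diet were the less uniform ones. The names of 2 SD mice start with M and those of the other 2 with TN. What the letters stand for is not given in the sources used here, and no WD mouse carries the name TN. On the first principal component of the members' log2 levels, which held 78.3% of their variance, M1N was placed at 8.40, M2N at 3.54, TN1 at -0.46 and TN2 at -2.22, and the WD mice between -3.58 and -1.05. The first component thus set M1N and M2N apart, with M1N farthest out, and placed TN2 among the WD mice and TN1 next to them.

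Counted member by member the picture was the same. M1N and any other mouse differed by 1.5-fold or more in 39 to 110 of the 200 members, M2N and the mice other than M1N in 23 to 70. Between a TN mouse and a WD mouse the number was 2 to 11, over 8 pairs of mice, and between WD mice it was 1 to 10, over 6 pairs. TN1 and TN2 differed in 5 members. These counts cover the members alone. The mean of M1N and M2N and that of TN1 and TN2 lay 1.5-fold or more apart in 59 members, 29.5% beside 29.4% of all piRNAs tested. M1N was the highest of the 8 mice in 96 members and the lowest in 60, together 78.0% of the members, beside 71.5% of the next 200 piRNAs and 54.2% of all piRNAs tested. With column totals the numbers were 77 and 79, so the balance between high and low members in M1N depends on the scaling, though not their sum. M1N and M2N were both above all other mice in 82 members (41.0%, beside 18.1% of all piRNAs tested) and both below them in 41 (20.5%, beside 17.7%), and with column totals in 64 and 52. For the next 200 piRNAs the shares were 42% and 19.5%, close to those of the members.

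**Figure D4:**
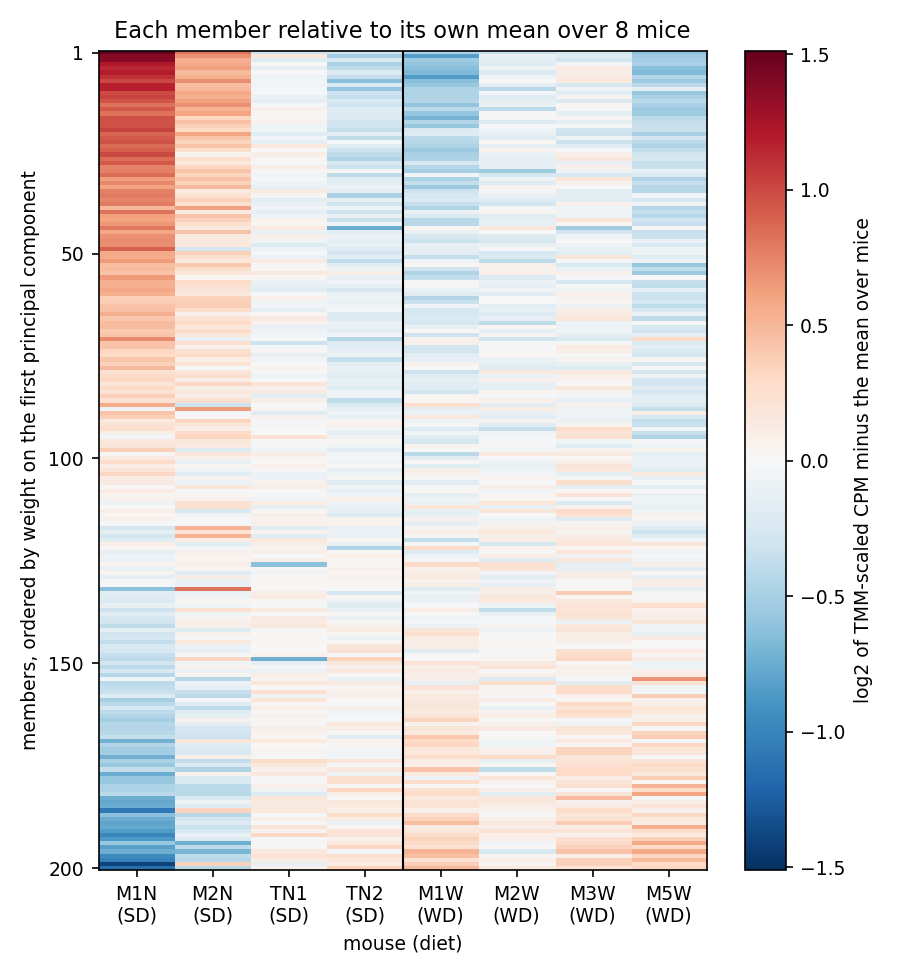
Log2 of the TMM-scaled CPM of each member (rows, ordered by their weight on the first principal component) minus its mean over the 8 mice (columns, with the diet under the name). M1N and, less strongly, M2N carry the extremes at both ends of the order, and the first component holds 78.3% of the variance.

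The diet comparison was therefore repeated against each pair of SD mice, with the same 4 WD mice in both, so that the results share those mice. Against M1N and M2N alone, 77 of the 200 members passed an adjusted p of 0.05 (edgeR), 38.5% beside 38% of the next 200 piRNAs and 21.2% of all piRNAs tested. Of the 77, 53 were lower in WD mice, 26.5% of the members beside 11.0% of all piRNAs, and 24 were higher, 12% beside 10.2%. A p of at most 0.05 before adjustment was found for 112 members, 56% beside 35.7%. Against TN1 and TN2 alone no member passed an adjusted p of 0.05, beside 0.00% of all piRNAs tested. Before adjustment 2 members, both higher in WD mice, had a p of at most 0.05, 1% beside 3.23% of all piRNAs tested in either direction and 1.91% higher. They are FR118656 and FR084298, the latter named for this count, with log2 fold changes of 0.34 and 0.39 and an adjusted p of 1.00 in edgeR's test.

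The sizes of the changes followed the same division. Against M1N and M2N the members' log2 fold changes ran from -1.64 to 1.07, and 66 differed by 1.5-fold with a p of at most 0.05 before adjustment. That was 33% of the members, beside 35.5% of the next 200 piRNAs and 28.2% of all piRNAs tested. Against TN1 and TN2 they ran from -0.32 to 0.39. None of the members and none of the next 200 piRNAs reached 1.5-fold, beside 4.32% of all piRNAs tested, or 1.61% with such a p. Members whose levels did not overlap numbered 129 against M1N and M2N (64.5%, beside 64.5% of the next 200 piRNAs and 43.0% of all) and 10 against TN1 and TN2 (5%, beside 5.5% and 11.7%). Over all 200 members, the mean of M1N and M2N exceeded that of TN1 and TN2 in 121 with TMM-scaled CPM and in 102 with column totals. Both counts cover the members alone.

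The count of 45 was also taken with each mouse left out. It was 22 without M1N (11% of the members, beside 7.99% of all piRNAs) and 19 without M2N (9.5% beside 7.74%). Without TN1 it was 57 (28.5% beside 19.3%), and without TN2 it was 77 (38.5% beside 22.9%). Of WD mice, M1W and M5W moved it most, to 18 without the former (9% beside 8.82%) and 19 without the latter (9.5% beside 7.33%), and it was 42 both without M2W (21% beside 14.9%) and without M3W (21% beside 11.1%). The count with a 1.5-fold change, 21, was 2 without M1N (1% beside 3.43%), 13 without M2N (6.5% beside 5.39%), 11 without M1W (5.5% beside 6.57%) and 38 without TN2 (19% beside 15.7%).

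**Figure D5:**
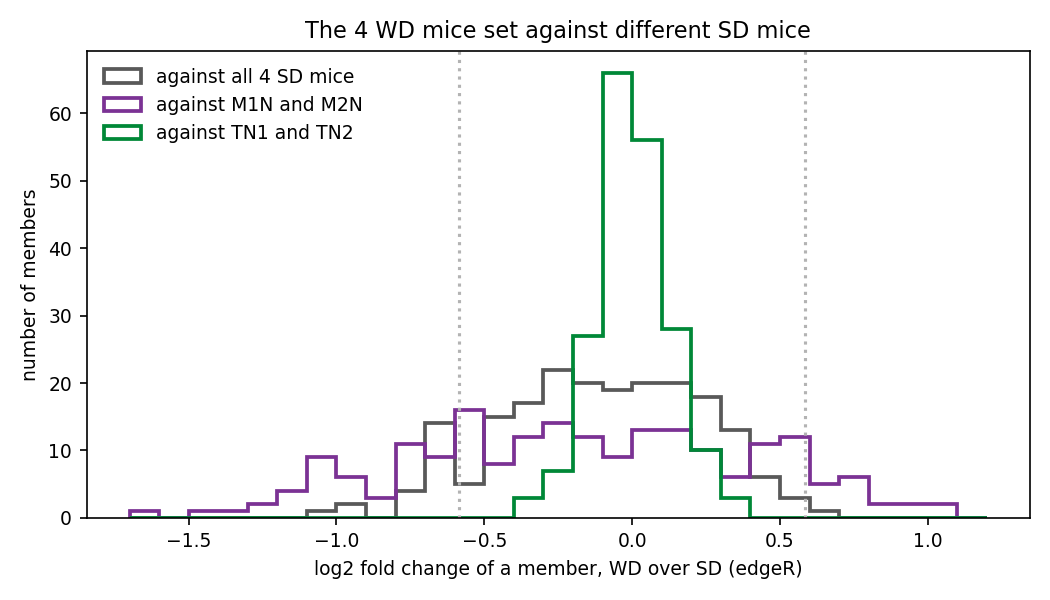
Number of members by their log2 fold change (WD over SD, edgeR, steps of 0.1) when the 4 WD mice were set against all 4 SD mice, against M1N and M2N or against TN1 and TN2, with dotted lines at a 1.5-fold change. Against TN1 and TN2 the values lie between -0.32 and 0.39, and against M1N and M2N between -1.64 and 1.07.

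Other small RNAs also divided the SD mice. The 5 miRNAs of the miR-290 cluster, which is typical of undifferentiated cells, summed to between 29.0 and 55.5 CPM in M1N and M2N, between 396 and 409 CPM in TN1 and TN2 and between 14.9 and 54.4 CPM in WD mice. The 3 leukocyte miRNAs summed to between 301 and 380 CPM in M1N and M2N, 181 to 189 CPM in TN1 and TN2 and 169 to 352 CPM in WD mice. miR-223-3p makes up most of the sum in M1N and M2N, whereas miR-142-3p was lower there, with 6.51 and 13.7 CPM against 15.4 and 16.7 CPM in TN1 and TN2. For the 2 endothelial arms of miR-126 the ranges were 2058 to 2099, 1323 to 1412 and 1248 to 2438 CPM. miR-143 and miR-145, of smooth muscle and stroma, summed to between 4149 and 4321 CPM in M1N and M2N, between 3058 and 3438 CPM in TN1 and TN2 and between 3232 and 5921 CPM in WD mice. miR-145-5p makes up most of that sum, and miR-143-3p ran the other way, with 165 and 296 CPM in M1N and M2N against 355 and 402 CPM in TN1 and TN2. Red blood cell miRNAs (2 of 3 found) were lower in M1N and M2N, with 38.3 to 66.5 CPM, than in TN1 and TN2, with 114 to 148 CPM, and had 74.6 to 132 CPM in WD mice. miR-122-5p, the liver miRNA, was found in TN1 and TN2 alone, with 13.0 to 15.4 CPM. In the sums of these 6 lists M1N and M2N did not overlap TN1 and TN2. The sums of the skeletal muscle list did not overlap either, with 36.7 to 40.2 CPM in M1N and M2N against 44.7 to 46.3 CPM, while those of miR-202 overlapped. The arms of miR-202 divided the pairs in opposite directions: miR-202-3p had 201.5 CPM in M1N, 181 in M2N, 98.9 in TN1 and 102 in TN2, and miR-202-5p had 3408, 3900, 4094 and 3931 CPM in the same order. The sum of the list of meiotic and later germ cells overlapped too, and its members differed among themselves. miR-34c-5p had 8432 CPM in M1N, 7576 in M2N, 8348 in TN1 and 6902 in TN2, and miR-34b-5p had 5294, 4355, 5677 and 4347 CPM in the same order. Of these abundant miRNAs neither set the pairs apart. miR-449a-5p had 2299 CPM in M1N, 1640 in M2N, 1082 in TN1 and 940 in TN2, and miR-34b-3p had 1746, 1660, 1039 and 1006 CPM in that order. The part of all these miRNAs in the differences of the members was not tested.

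The spread between mice could be given for each diet. The coefficient of variation (CV, the standard deviation as a percent of the mean) of a member had a median of 19.6% over the SD mice and 10.9% over the WD mice, and it was larger in SD mice for 158 of the 200 members (79.0%, beside 66.3% of all piRNAs tested). M1N carried much of this, since without it the median CV of the SD mice was 13.3%. Over M1N and M2N alone the median was 14.6%, and over TN1 and TN2 alone 6.62%. The members' counting error, at a median of 2.32%, was a small part of each.

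The members' CV was close to that of the next ranks and below that of the least abundant piRNAs. The median CV over WD mice was 11.6% for the next 200 piRNAs and 11.2% for ranks 401 to 1000, and 24.7% for tested piRNAs below rank 10000, whose median counting error was 21.3%. Over SD mice it was 19.0%, 20.1% and 29.1% for the same ranks. These are medians over piRNAs of the same libraries, with no test.

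The most variable members over the 8 mice were those already named for their low level in WD mice. FR048394 had a CV of 67.1%, FR207127 of 59.5% and FR265296 of 58.2%, and in FR207127 the highest mouse exceeded the lowest by 4.61-fold. At the other end, FR181186 had a CV of 4.83%, FR040811 of 5.04% and FR384399 of 5.27%. FR181186, rank 110, had 609 CPM in M1N, 574 in M2N, 637 in TN1 and 632 in TN2, and 645 in M1W, 589 in M2W, 616 in M3W and 664 in M5W. M1N and M2N are here level with the rest, so members of similar abundance did not share one pattern. In 73 members the highest mouse exceeded the lowest by 2-fold or more, and in 55 by less than 1.5-fold.

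Some members were counted almost alike in every mouse. The counts of each of the 19900 pairs of members were compared over the 8 mice by a chi-square divided by its degrees of freedom, which is about 1 for names that differ by counting error alone. It had a median of 60.6 and was below 1 in 3 pairs. FR298136 and FR204129, ranks 90 and 91, had totals of 15396 and 15388 counts and never differed by more than 5 counts in a mouse. In M1N they had 1406 and 1403 counts, in TN1 2257 each and in M5W 2535 and 2533. The value of this pair, 0.00168, is closer than the counting error of independent reads.

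FR263406 and FR365602, ranks 73 and 78, had totals of 16817 and 16619 counts and a value of 0.0585. FR181186 and FR322899, ranks 110 and 129, had 13741 and 12355 counts, a ratio of 1.11 that hardly varied between mice (0.163). The next pair stood at 1.18, FR291141 and FR040811. FR347103, rank 21, ran along with FR298136 (1.53) and FR204129 (1.60), and its 30688 counts were close to the 2 totals added, which came to 1.00 times that number. Other pairs among the closest 10 were FR318725 with FR251252, FR216486 with FR171235, and FR275264 with FR205159 and with FR110298, with values between 1.23 and 1.83.

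How the authors counted a read that matches several names is not given, and whether these names share reads was not tested. Counting each of the 3 closest pairs once leaves 197 members, of which 7 (3.55%) had diets that did not overlap, beside 5.62% of all piRNAs tested.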

How the data were processed

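Small RNA of 8 testes was sequenced on a SOLiD instrument. In the authors' hands, reads were cut where the adaptor began or after 31 bases, Bowtie placed them on the mm9 genome with up to 2 mismatches, and names came from miRBase 18, Rfam and the ncRNA.org database. The deposited table holds raw read counts, a column for each mouse, neither normalised nor pooled. The submitters' processing notes also name DESeq, without a version. The counting program is not given in the sources used here. Every listed small RNA has at least 9 counts in all.

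The 200 members, the marker lists and the tests were chosen with earlier results of these data known. All small RNAs entered one two-sided quasi-likelihood fit in edgeR 4.0.16 under R 4.3.3, with column totals as library sizes, TMM factors, filterByExpr (minimum count 10, minimum total 15), no term besides diet, and Benjamini-Hochberg adjustment over the 16955 small RNAs tested. Standard errors were derived from the F statistic. The alternative tests were those of limma 3.58.1 (voom) and DESeq2 1.42.0. Shares were compared by an exact permutation test over all 70 assignments of the mice. The mice are separate animals by name, and p-values measure the spread between them. The fit was tested on simulated data. Logarithms of CPM for the principal components used a pseudocount of 0.5.

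Alternatives were other tests, scalings, filters, thresholds, each pair of SD mice, each mouse left out, a block for the mice numbered 1 and 2, and other choices of members. The newer quasi-likelihood method and counting closely agreeing members once were chosen after seeing the data. Named are the 10 highest members, those at the edge of the list, the 10 with the smallest p, the 5 largest changes in each direction, the 3 largest and smallest CVs and the 10 closest pairs.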

Additional observations from a re-analysis of the deposited data

Results flagged for a closer look

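In 3 of the 90 groups of 4 mice examined (the shares and the named members, by diet), the gap between 1 mouse and the nearest of its group, as a part of the whole range, was above the 95% value of Dixon's test. Chance gives about 4.5 of 90. M2N was high for FR263406, with 1077 CPM against 628 to 696 CPM in the other SD mice (gap 0.847 of the range). The same holds for FR365602, whose counts run along with those of FR263406, with 1070 CPM in M2N against 610 to 688 CPM (gap 0.830). M2W was low for FR174327, with 4296 CPM against 5342 to 5540 CPM in the other WD mice (gap 0.841).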

How the results depend on the processing

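No member passed an adjusted p of 0.05 under another test, scaling or filter, with adjustment over the piRNAs alone or with any mouse left out (0 in each). The number was 77 against M1N and M2N alone, 18 with the replicate block over M1N, M2N, M1W and M2W (9%, beside 7.01% of all piRNAs tested) and 25 for these mice without it (12.5% beside 6.23%). The 45 members with a p of at most 0.05 became 112 against M1N and M2N, 2 against TN1 and TN2, 56 with the block (28%, beside 22.8% of all piRNAs), 71 for its mice without it (35.5% beside 24.3%), and 18 to 77 with one mouse left out (9 to 38.5%, beside 7.33 to 22.9%). The 21 that also differed by 1.5-fold became 66, 0, 56 (28% beside 22.6%) and 65 (32.5% beside 22.9%) in the same order, 2 to 38 with one mouse left out (1 to 19%, beside 3.43 to 15.7%), and 1 at 2-fold (0.5% beside 0.797%). Deviations of the same-numbered mice correlated at -0.07 (M1N and M1W) and 0.24 (M2N and M2W). Those of differently numbered mice correlated at 0.21 (M1N and M2W) and -0.07 (M2N and M1W). The numbers name different animals, and what they stand for is not given in the sources used here. So few values cannot decide whether the mice were paired. The median log2 fold change of the members was -0.0047 against TN1 and TN2, and the share of the members then differed by 0.0995 percentage points. With one mouse left out the share differed by -1.04 to -0.27 points and the median was -0.14 to -0.059. Non-overlapping diets, found for 8 members, were found for 129 against M1N and M2N. With column totals they were found for 11 members and with piRNA totals for 12, counts that cover the members alone. With one mouse left out the median CV was 13.3 to 21.2% in SD mice and 10.2 to 10.8% in WD mice, and edgeR's biological coefficient of variation over both diets was 19.0%. With 200 members chosen by median CPM instead, 40 had a p of at most 0.05 before adjustment (edgeR), beside 14.6% of all piRNAs tested. Of these, 16 also differed by 1.5-fold, beside 8.57%, and the median log2 fold change of that list was -0.071. The cause of these changes was not tested.

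Named members near a log2 fold change of 0 changed sign. Against TN1 and TN2 these were FR318025 (-0.0057), FR010123 (-0.025), FR263406 (0.15), FR365602 (0.16), FR291141 (0.0093), FR181186 (-0.014), FR322899 (-0.013), FR320793 (0.021) and FR213976 (0.22). FR384399 had -0.062 against M1N and M2N and -0.074 with and without the block. Column totals gave 0.030 for FR263406, 0.038 for FR365602, 0.0058 for FR291141 and 0.039 for FR320793. limma-voom gave 0.0088 for FR263406 and 0.020 for FR365602. Upper-quartile factors gave 0.0019 for FR365602 and 0.0049 for FR320793, and a minimum of 10 counts in every mouse 0.00057 for FR320793. With the block and without it FR318725 had -0.11, FR251252 -0.058 and -0.057, and FR320793 0.10 and 0.084. With one mouse left out the ranges crossed 0 for FR384399 (-0.037 to 0.052), FR263406 (-0.11 to 0.19), FR318725 (-0.049 to 0.096), FR365602 (-0.10 to 0.20), FR320793 (-0.062 to 0.091) and FR213976 (-0.23 to 0.024).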

Other observations

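Among the 200 most abundant small RNAs of all classes, 148 were piRNAs and 47 miRNAs, but among the 10 most abundant 8 were miRNAs. FR174327 had 2 small RNAs above it.

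The first 2 places among the piRNAs were held by FR174327 and FR086732 in 6 of the 8 mice. In M1W and M5W the second place went to FR118656, with 9546 and 7874 counts, against 6897 and 7862 counts for FR086732.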
